A study of Mus musculus with 12 samples.

Results

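The genes described here encode ion channels and calcium pumps, measured by RNA-seq of polyadenylated RNA in cultured cells of CT26, a mouse colorectal cancer line. They were taken by gene symbol: potassium channel subunits (Kcn), voltage-gated calcium (Cacna, Cacnb, Cacng) and sodium (Scn) channel subunits, TRPC, TRPM and TRPV channels, calcium pumps (Atp2a, Atp2b, Atp2c), inositol trisphosphate and ryanodine receptors, STIM and ORAI proteins, Clcn chloride channels and exchangers, and Piezo channels. The rule found 81 members among 17718 genes. The groups were 3 libraries of Mll3 knock-out cells and 3 libraries of Mll3 wild-type cells, both untreated apart from the knock-out and both carrying 1 batch date. The files list Mll3 under its current symbol Kmt2c; its protein methylates histone H3 at enhancers. The labels do not say whether the knock-out was 1 clone, and the knock-out libraries are called sg1, sg2 and sg3 here, as in the deposited table. Whether the libraries of a genotype are separate cultures is not stated, and p-values then measure only how far these libraries spread, which may be technical.

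Channels let ions run down their gradients and pumps move them back at the cost of ATP. In non-excitable cells, receptors coupled to phospholipase C open inositol trisphosphate receptors in the endoplasmic reticulum. The emptied store is sensed by STIM proteins, which open ORAI channels in the plasma membrane, and calcium is returned by SERCA pumps (Atp2a genes) or expelled by plasma membrane pumps (Atp2b genes). Potassium channels set the membrane potential that drives calcium entry, and most CLC family members other than Clcn1 and Clcn2 exchange chloride for protons in endosomes and lysosomes.

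Libraries held 9786242 to 11129754 counts in the knock-out and 9559658 to 13406013 in wild-type, so that 1 count was worth 0.0786 to 0.108 CPM (CPM here is the read count scaled by TMM, a correction for library size and composition). Kmt2c had 15.96, 11.2 and 14.8 CPM in libraries sg1, sg2 and sg3 against 24.9, 26.2 and 25.01 CPM in wild-type libraries 1, 2 and 3, and was 1.82-fold lower in the knock-out (edgeR adjusted p = 4.33e-08). Of 10 epithelial markers 4 were analysed, and their summed level was 161 to 174 CPM in knock-out and 53.0 to 55.5 CPM in wild-type libraries. Nearly all of this sum was Krt18 and Krt20. The other 6, Epcam, Cdh1, Krt19, Cdx2, Cldn4 and Cldn7, were not among the 17718 genes, each of which was above 0 in at least 3 libraries. The sum of 6 of 7 fibroblast markers was 1539 to 1575 CPM in knock-out and 1038 to 1055 CPM in wild-type libraries. Most of it was Col1a2, at 998 to 1021 CPM in knock-out and 874 to 887 CPM in wild-type libraries. Col3a1 was at 216 to 219 CPM in knock-out and 29.3 to 32.1 CPM in wild-type libraries. Col1a1, Pdgfra and Dcn were also higher in every knock-out library, while Pdgfrb overlapped (33.5 to 42.9 CPM in knock-out and 31.7 to 39.1 CPM in wild-type). The sum of 5 of 8 immune markers was 14.0 to 18.6 CPM in knock-out and 14.6 to 17.8 CPM in wild-type libraries, with the leukocyte marker Ptprc at 0.192 to 0.346 CPM in the knock-out and 0.0786 to 0.108 CPM in wild-type. Within that sum the myeloid markers moved apart: Lyz2 was at 8.36 to 9.40 CPM in knock-out and 0.216 to 0.816 CPM in wild-type libraries, and Csf1r at 4.93 to 7.73 CPM in knock-out and 14.1 to 16.1 CPM in wild-type libraries. The 2 of 7 neuronal markers analysed, nearly all Syt1, summed to 1.30 to 1.76 CPM in knock-out and 14.6 to 17.9 CPM in wild-type libraries. The 3 of 7 muscle markers summed to 0.951 to 2.15 CPM in knock-out and 0.216 to 1.53 CPM in wild-type libraries. The 3 of 4 endothelial markers analysed summed to 1.96 to 3.11 CPM in knock-out and 0.471 to 1.94 CPM in wild-type libraries. Their part in the results was not tested, and fewer cells of a type and less RNA per cell cannot be told apart in bulk RNA.

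Of the 81 members, 49 had enough counts to be tested and 32 did not, with at most 49 counts each over all 6 libraries. Among the 49, the knock-out was higher for 18 and lower for 13 by edgeR's quasi-likelihood test (Benjamini-Hochberg adjusted p under 0.05 over 13013 genes), while 18 did not pass. The 31 calls are 63.3% of the tested members, against 66.2% of all genes tested (33.1% higher and 33.2% lower), so the share called was near the background. The groups did not overlap for 34 of the 49, against 68.7% of all genes. Changes of at least 2-fold were called for 13 members, 9 higher and 4 lower, or 26.5% of those tested, against 15.1% of all genes (10.1% higher and 4.99% lower). Of these 9, some, Atp2b4, Atp2a1 and Kcnh1 among them, passed the filter on low counts only because of the knock-out libraries. This share is therefore no support for a difference from other genes. The median log2 fold change of the 49, which includes these members, was 0.26, against 0.02 for all genes tested. Of all calls 49.9% were higher in the knock-out, a share that was 63.7% with upper-quartile scaling.

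By role, the tested members were 3 of 5 store release channels, 5 of 5 store-operated entry genes, 6 of 8 calcium pumps, 8 of 12 voltage-gated calcium channel subunits, 5 of 8 TRP channels and Piezo1. They were also 12 of 30 potassium channel genes, 6 of 7 Clcn genes and 2 of 3 genes that encode no channel or pump. Most of the untested members were thus potassium channel genes, 18 of 32.

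**Figure D1:**
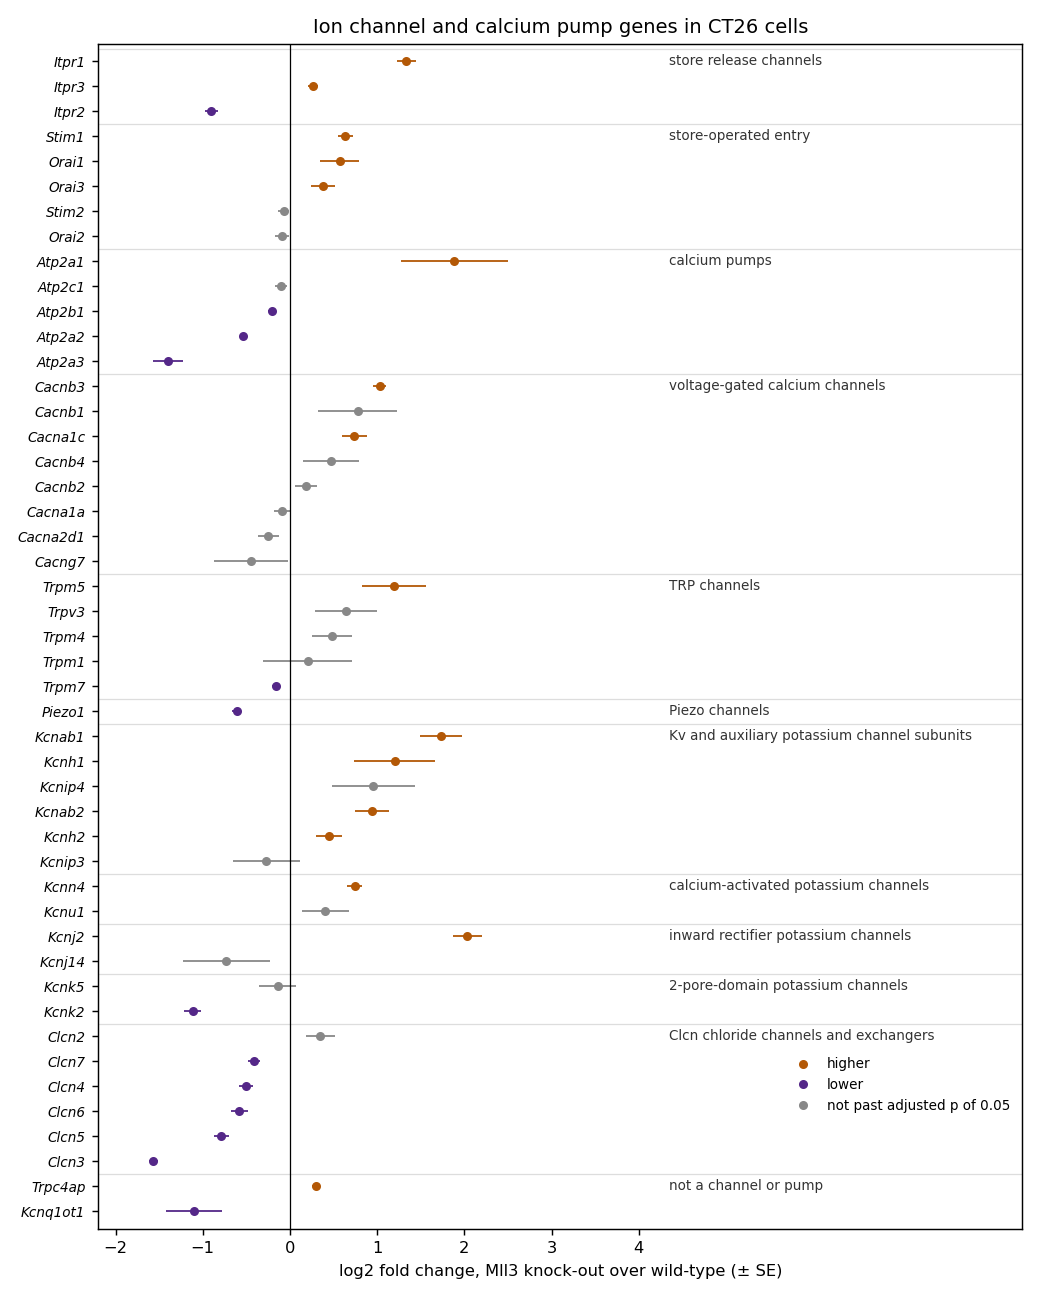
Log2 fold change of the tested ion channel and calcium pump genes, Mll3 knock-out over wild-type, with standard errors (SE) from edgeR (n = 3 libraries per genotype), by role. Atp2b4, with 0 counts in wild-type, and 1 other member are left out. The Clcn exchangers and Itpr2, Atp2a2 and Atp2a3 lie to the left of 0, and Itpr1, Stim1, Cacnb3, Kcnab1 and Kcnj2 to the right.

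Of the inositol trisphosphate receptors, which release calcium from the endoplasmic reticulum, Itpr1 and Itpr3 were higher and Itpr2 lower in the knock-out. Itpr1 (chromosome 6, 108213083 to 108551116, mm10) had 39.8, 37.9 and 37.1 CPM in the knock-out libraries and 15.2, 14.0 and 16.5 CPM in the wild-type libraries. Every knock-out value was above every wild-type value, a 2.52-fold rise (log2 fold change 1.33, SE 0.108, edgeR adjusted p = 2.70e-16). Itpr2 (chromosome 6, 146108299 to 146502258) had 38.0, 37.0 and 38.0 CPM in the knock-out libraries and 67.3, 74.9 and 69.1 CPM in wild-type. It moved the opposite way without overlap, 1.87-fold lower (log2 fold change -0.90, SE 0.0760, edgeR adjusted p = 1.02e-15). Itpr3 averaged 98.7 ± 5.52 CPM in the knock-out and 82.2 ± 2.91 CPM in wild-type (SD, n = 3 each), a smaller rise of 0.26 on the log2 scale (SE 0.0599), which was 0.42 with upper-quartile scaling. Ryanodine receptor genes, the release channels of muscle, were too low to test: Ryr1 had 24 counts in the knock-out and 9 in wild-type, and Ryr3 had 3 and 3.

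Itpr1 and Itpr2 moved apart, and the ratio of their reads within a library does not depend on the scaling. It was 1.05, 1.02 and 0.977 in the knock-out libraries and 0.225, 0.187 and 0.239 in the wild-type libraries. The knock-out libraries thus held close to equal numbers of reads from both genes, without overlap with wild-type. The log2 ratio differed by 2.24, and the exact 2-sided permutation test gave p = 0.10, the smallest p that 3 against 3 allows (adjusted p = 0.10 over the 3 ratios computed, which were chosen after their values were seen).

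The printed window is the RefSeq promoter of Itpr2 on GRCm38.p6, minus strand, shown because Itpr2 fell while Itpr1 rose. It runs over chr6:146502174-146502473, 250 bases before to 50 after the annotated start. Capitals mark each match, on either strand, to 6 motifs. They are the TATA box, spelled TATAAA, the CCAAT box, spelled as named, the GC box, spelled GGGCGG, the E-box, spelled CACGTG, the cyclic AMP response element or CRE, spelled TGACGTCA, and the AP-1 motif, spelled TGANTCA.
Itpr2: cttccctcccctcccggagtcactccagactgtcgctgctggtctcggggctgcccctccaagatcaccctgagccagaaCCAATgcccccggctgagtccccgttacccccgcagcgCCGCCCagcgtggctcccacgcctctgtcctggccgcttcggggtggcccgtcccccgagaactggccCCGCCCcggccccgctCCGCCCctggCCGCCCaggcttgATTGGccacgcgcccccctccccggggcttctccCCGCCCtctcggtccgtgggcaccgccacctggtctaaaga
It holds 5 GC boxes, 2 CCAAT boxes and 26 CpG dinucleotides. Over all 32851 promoter windows of that length, 35.7% hold a GC box, 37.4% a CCAAT box, 13.6% a TATA box, 7.15% an E-box, 1.79% a CRE and 7.81% an AP-1 match, and the median is 7 CpG. A match is a description of these letters, not a site of binding.

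Of the store-operated entry genes, Stim1, Orai1 and Orai3 were higher in the knock-out, and Stim2 and Orai2 did not pass the test. The share called was 60.0%, against 66.2% of all genes tested. Stim1, the sensor of store calcium (chromosome 7, 102261514 to 102437319), had 43.8, 55.3 and 48.2 CPM in the knock-out libraries and 30.6, 32.1 and 32.3 CPM in wild-type. The groups did not overlap, and the rise was 1.55-fold (log2 fold change 0.64, SE 0.0894, edgeR adjusted p = 1.09e-08). Its relative Stim2, a sensor that responds to smaller store losses, had 73.4, 74.8 and 79.6 CPM in the knock-out and 82.8, 82.8 and 73.2 CPM in wild-type, with overlap (log2 fold change -0.07, SE 0.0645, edgeR adjusted p = 0.337). The ratio of Stim1 to Stim2 reads was 0.647 ± 0.0803 in the knock-out and 0.400 ± 0.0374 in wild-type (SD, n = 3 each; exact permutation p = 0.10).

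Orai1, the pore subunit of the calcium release-activated channel, had 7.64, 8.48 and 6.82 CPM in the knock-out and 3.46, 5.201 and 7.12 CPM in wild-type. Wild-type replicate 3 lay inside the knock-out range. The call (log2 fold change 0.57, SE 0.223, edgeR adjusted p = 0.0222) was lost without wild-type replicate 1 (0.31, adjusted p = 0.237), without knock-out library sg1 or sg2 (adjusted p = 0.0602 and 0.120) and with DESeq2 (adjusted p = 0.0588). The pore gene Orai3 averaged 17.6 ± 1.98 CPM in the knock-out and 13.5 ± 0.625 CPM in wild-type (SD, n = 3 each; log2 fold change 0.38, edgeR adjusted p = 0.0148). That call was lost without knock-out library sg1 (adjusted p = 0.118), without wild-type replicate 1 (0.0587) and with chromosome medians removed (0.0602). Orai2, the other paralogous pore gene, averaged 43.8 ± 1.01 CPM in the knock-out and 46.7 ± 2.70 CPM in wild-type (SD, n = 3 each), with overlapping groups (log2 fold change -0.09, SE 0.0808, edgeR adjusted p = 0.312). The Orai1 to Orai2 read ratio was 0.174 ± 0.0192 in the knock-out and 0.113 ± 0.0412 in wild-type (SD, n = 3 each, exact permutation p = 0.10). The groups nearly touched, with 0.153 in knock-out library sg3 and 0.152 in wild-type replicate 3.

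**Figure D2:**
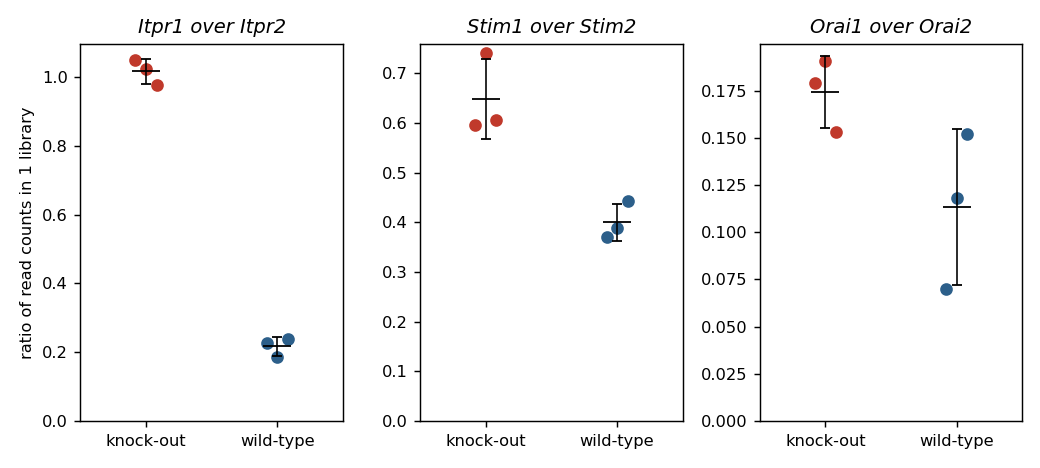
Ratio of read counts between related genes within each library, for Itpr1 over Itpr2, Stim1 over Stim2 and Orai1 over Orai2. Points are libraries and bars are mean ± SD (n = 3). The Itpr1 over Itpr2 ratio was near 1.02 in the knock-out and 0.217 in wild-type on average.

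Of 6 tested calcium pump genes, 2 were higher and 3 lower in the knock-out, the SERCA genes Atp2a2 and Atp2a3 among the lower. The share called was 83.3%, against 66.2% of all genes tested. Atp2a2, the SERCA pump found in nearly all tissues, had 404, 395 and 396 CPM in the knock-out libraries against 578, 577 and 577 CPM in the wild-type libraries. The libraries of each genotype lay close together, and the fall was 1.45-fold (log2 fold change -0.54, SE 0.0358, edgeR adjusted p = 1.04e-19). Atp2a3, the SERCA pump known from blood and epithelial cells, had 4.80, 8.82 and 7.11 CPM in the knock-out and 20.6, 16.6 and 17.6 CPM in wild-type. It was 2.63-fold lower without overlap (log2 fold change -1.40, SE 0.168, edgeR adjusted p = 1.61e-10). Atp2a1, the SERCA pump of fast skeletal muscle, was scarce, with 39 counts in the knock-out and 10 in wild-type. It passed the filter on low counts only because of the knock-out libraries. Its call as higher (log2 fold change 1.88, SE 0.613, edgeR adjusted p = 0.00602) was lost without wild-type replicate 1 (1.33, adjusted p = 0.0758) and without knock-out library sg2 (1.63, adjusted p = 0.0552), and its span overlaps that of Rabep2.

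Atp2b4, a plasma membrane calcium pump (chromosome 1, 133702674 to 133801059), had 34, 46 and 54 counts in the knock-out libraries, or 3.33, 3.98 and 5.19 CPM, and 0 counts in each wild-type library. It was at least 14.4-fold higher in the knock-out against a floor of 3 counts per library, a floor that covers counting error only (edgeR adjusted p = 8.21e-13). With 0 counts in wild-type, it passed the filter on low counts only because of the knock-out libraries. The 20 tested genes nearest to it on chromosome 1 had a median log2 fold change of -0.27. Atp2b1, the plasma membrane pump of most cells, had 242, 262 and 244 CPM in the knock-out and 290, 302 and 269 CPM in wild-type. It fell by 0.20 on the log2 scale (SE 0.0433, edgeR adjusted p = 4.75e-05), a call lost with scaling to library size only (-0.08) and to the upper quartile (-0.05). Atp2b1 lies on chromosome 10, whose tested genes had a median of 0.36, and it stood at -0.56 once chromosome medians were removed. Atp2c1, the Golgi calcium and manganese pump, averaged 66.0 ± 3.03 CPM in the knock-out and 70.8 ± 6.64 CPM in wild-type (SD, n = 3 each; edgeR adjusted p = 0.179; -0.19 with adjusted p = 0.0127 without wild-type replicate 3). Atp2b3 and Atp2c2 were too low to test.

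The RefSeq promoter of Atp2b4 on GRCm38.p6, minus strand, chr1:133753698-133753997, is shown because the gene was read in 1 genotype alone. The window lies inside the annotated span of the gene, the table used lists 1 start, and the counts do not tell which start these cells use.
Atp2b4: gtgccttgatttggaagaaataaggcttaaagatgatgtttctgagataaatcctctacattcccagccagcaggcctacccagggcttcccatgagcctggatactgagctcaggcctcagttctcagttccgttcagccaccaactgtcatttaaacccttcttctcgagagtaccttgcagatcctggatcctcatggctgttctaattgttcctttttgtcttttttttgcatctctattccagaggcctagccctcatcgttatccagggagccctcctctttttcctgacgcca
None of the 6 motifs has a match in these letters, and the window holds 4 CpG dinucleotides.

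**Figure D3:**
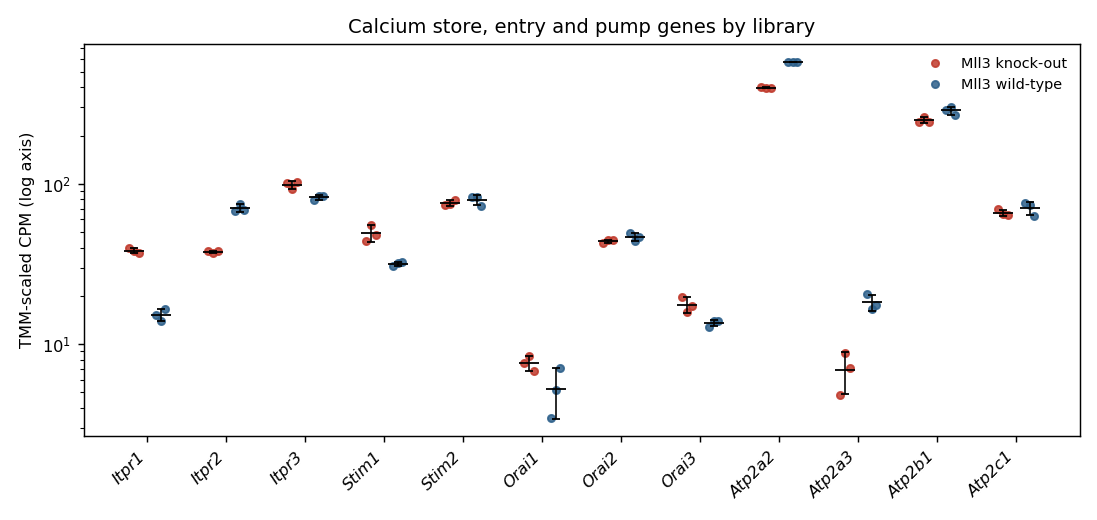
TMM-scaled CPM (log axis) of calcium release, entry and pump genes in each library, knock-out left and wild-type right, with mean ± SD (n = 3). Itpr1 and Stim1 were higher and Itpr2, Atp2a2 and Atp2a3 lower in all knock-out libraries, while Orai1, Orai2, Stim2 and Atp2c1 overlapped.

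Of the 8 tested voltage-gated calcium channel subunits, 2 rose, 0 fell and 6 did not pass (edgeR, adjusted p under 0.05). Calls were thus a smaller share here than among all genes tested, where 66.2% were called (33.1% higher and 33.2% lower). That difference was not tested. Cacnb3, an auxiliary beta subunit that helps bring the channel to the membrane (chromosome 15, 98628436 to 98644536), had 70.5, 73.8 and 77.5 CPM in the knock-out libraries and 36.1, 35.6 and 37.0 CPM in wild-type. It was 2.04-fold higher with no overlap (log2 fold change 1.03, SE 0.0753, edgeR adjusted p = 4.49e-18). Cacna1c, the pore subunit of an L-type channel of heart and smooth muscle, had 18.2, 16.9 and 18.2 CPM in the knock-out and 11.001, 9.69 and 11.2 CPM in wild-type. That is a 1.66-fold rise (log2 fold change 0.74, SE 0.144, edgeR adjusted p = 1.20e-05), and its span overlaps that of Dcp1b. The alpha2delta subunit gene Cacna2d1 averaged 18.0 ± 1.72 CPM in the knock-out and 21.4 ± 0.627 CPM in wild-type (SD, n = 3 each; edgeR adjusted p = 0.0716). Cacnb1, whose span overlaps that of Rpl19, averaged 1.63 ± 0.365 CPM in the knock-out and 0.938 ± 0.196 CPM in wild-type (SD, n = 3 each; edgeR adjusted p = 0.124). The pore gene Cacna1a, the beta subunit genes Cacnb2 and Cacnb4 and the gamma subunit gene Cacng7 also did not pass.

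Among 5 tested TRP channels, cation channels opened by chemical, thermal or lipid signals, 1 rose and 1 fell. Here too the called share was below the 66.2% of all genes tested, a difference that was not tested. Trpm7, a magnesium- and calcium-permeable channel fused to a kinase, had 183, 199 and 195 CPM in the knock-out and 225, 209 and 211 CPM in wild-type. The groups did not overlap, yet the fall of 0.16 on the log2 scale (SE 0.0451, edgeR adjusted p = 0.00159) was lost with scaling to library size only (-0.04, adjusted p = 0.432) and to the upper quartile (adjusted p = 0.956). Trpm5, a calcium-activated monovalent cation channel of taste and tuft cells, had 2.45, 3.46 and 3.65 CPM in the knock-out and 1.26, 1.53 and 1.402 CPM in wild-type (log2 fold change 1.19, SE 0.366, edgeR adjusted p = 0.00357). Its relative Trpm4 averaged 6.32 ± 1.03 CPM in the knock-out and 4.52 ± 0.244 CPM in wild-type (SD, n = 3 each; edgeR adjusted p = 0.0621, and 0.0395 without knock-out library sg2). Trpv3, a heat-sensitive channel of skin, averaged 2.96 ± 1.05 CPM in the knock-out and 1.92 ± 0.394 CPM in wild-type (SD, n = 3 each; edgeR adjusted p = 0.111, and 0.0371 without knock-out library sg1). Trpm1, a channel of retina and melanocytes, did not pass.

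Piezo1, the pore of a mechanically activated cation channel (chromosome 8, 122481698 to 122551329), had 96.5, 108 and 102 CPM in the knock-out libraries and 161, 145 and 162 CPM in wild-type. It was 1.53-fold lower with no overlap (log2 fold change -0.61, SE 0.0538, edgeR adjusted p = 5.71e-15). The 662 tested genes of chromosome 8 had a median of -0.35, and Piezo1 stood at -0.26 once chromosome medians were removed (adjusted p = 3.74e-05). The 20 tested genes nearest to it had a median of -0.38, and its span overlaps that of Ctu2.

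Of 12 tested potassium channel genes, 6 rose and 1 fell, so 58.3% were called, against 66.2% of all genes tested, a share near the background. Kcnj2, the inward rectifier that holds the resting potential near the potassium equilibrium (chromosome 11, 111066164 to 111076825), had 19.1, 24.6 and 22.6 CPM in the knock-out libraries and 6.76, 4.79 and 4.31 CPM in wild-type. It was 4.10-fold higher without overlap (log2 fold change 2.03, SE 0.165, edgeR adjusted p = 2.55e-16). The inward rectifier Kcnj14 averaged 0.788 ± 0.443 CPM in the knock-out and 1.36 ± 0.397 CPM in wild-type (SD, n = 3 each; edgeR adjusted p = 0.194).

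The RefSeq promoter of Kcnj2 on GRCm38.p6, plus strand, chr11:111065914-111066213, is given because this was the potassium channel gene with the largest log2 fold change among those tested.
Kcnj2: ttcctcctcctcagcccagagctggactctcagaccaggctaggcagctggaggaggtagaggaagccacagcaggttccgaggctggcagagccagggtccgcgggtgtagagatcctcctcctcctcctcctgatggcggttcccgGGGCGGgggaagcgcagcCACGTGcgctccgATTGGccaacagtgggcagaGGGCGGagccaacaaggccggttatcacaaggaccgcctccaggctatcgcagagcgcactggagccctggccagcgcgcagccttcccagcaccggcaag
It holds 2 GC boxes, 1 CCAAT box and 1 E-box in capitals, with 18 CpG dinucleotides.

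Kcnn4, the intermediate-conductance calcium-activated channel of epithelial and immune cells, had 51.0, 57.4 and 57.5 CPM in the knock-out libraries and 31.9, 28.6 and 39.1 CPM in wild-type. The lowest knock-out value was above the highest wild-type value, a 1.67-fold rise (log2 fold change 0.74, SE 0.0895, edgeR adjusted p = 1.74e-10). Kcnu1, the pH-gated channel of sperm, lies on chromosome 8 and averaged 4.93 ± 1.29 CPM in the knock-out and 3.71 ± 1.01 CPM in wild-type (SD, n = 3 each; edgeR adjusted p = 0.186, and 0.0126 with chromosome medians removed).

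Among 6 tested voltage-gated potassium channel genes and their partners, 4 rose and 0 fell. The share called was 66.7%, against 66.2% of all genes tested, and so near the background. Kcnab1, a cytoplasmic beta subunit with an aldo-keto reductase fold, had 10.2, 10.46 and 10.7 CPM in the knock-out and 3.46, 1.33 and 4.64 CPM in wild-type. It was 3.31-fold higher (log2 fold change 1.73, SE 0.240, edgeR adjusted p = 1.42e-08), with wild-type replicate 2 the lowest library. The related Kcnab2 had 9.89, 13.1 and 10.8 CPM in the knock-out and 4.87, 7.44 and 5.39 CPM in wild-type (log2 fold change 0.94, SE 0.192, edgeR adjusted p = 2.36e-05), and its span overlaps that of Nphp4. Both beta subunit genes were thus higher in every knock-out library than in any wild-type library. Kcnip3 and Kcnip4, calcium-binding partners of voltage-gated potassium channels, did not pass (edgeR adjusted p = 0.55 and 0.0712).

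Kcnh2, the ERG channel of cardiac repolarisation, had 14.6, 14.9 and 17.9 CPM in the knock-out and 11.1, 12.6 and 10.9 CPM in wild-type (log2 fold change 0.45, SE 0.148, edgeR adjusted p = 0.00621), a call lost without knock-out library sg3 (0.34, adjusted p = 0.0751). Kcnh1, the EAG channel, had 11, 36 and 20 counts in the knock-out and 20, 5 and 4 in wild-type, with overlap. It passed the filter on low counts only because of the knock-out libraries. Its call (log2 fold change 1.20, SE 0.466, edgeR adjusted p = 0.0209) was lost without wild-type replicate 2 (adjusted p = 0.0960) or 3 (0.0949), without knock-out library sg2 (0.262) or sg3 (0.0512), and with DESeq2 (0.0571). Without wild-type replicate 1 its value was 2.10 (adjusted p = 0.00273).

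The 1 potassium channel gene that fell was Kcnk2, a mechano- and lipid-sensitive background channel of the 2-pore-domain family (chromosome 1, 189207930 to 189402782). It had 20.5, 19.5 and 21.0 CPM in the knock-out libraries and 46.7, 42.8 and 42.2 CPM in wild-type. It was 2.17-fold lower without overlap (log2 fold change -1.11, SE 0.0974, edgeR adjusted p = 3.90e-15). Its relative Kcnk5, an acid-sensitive background channel, averaged 6.15 ± 1.41 CPM in the knock-out and 6.78 ± 1.32 CPM in wild-type (SD, n = 3 each; edgeR adjusted p = 0.578). With the chromosome 14 median of 0.34 removed its value was -0.48 (adjusted p = 0.0442). Of the untested members, the background channel gene Kcnk3, picked after its values were seen, had 22 counts in the knock-out and 1 in wild-type, a ratio of 21.7 (exact binomial 95% interval 3.51 to 897, counting error only).

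Of 6 tested genes of the Clcn family, 5 fell and 0 rose, where 33.2% of all genes tested fell and 33.1% rose. Clcn3, an endosomal chloride-proton exchanger (chromosome 8, 60910389 to 60983317), had 68.3, 64.9 and 66.5 CPM in the knock-out libraries and 195, 200 and 196 CPM in wild-type. It was 2.96-fold lower, far outside the spread of either genotype (log2 fold change -1.57, SE 0.0525, edgeR adjusted p = 3.10e-33). With the chromosome 8 median removed its value was -1.21 (adjusted p = 5.39e-28), and its 20 nearest tested genes had a median of -0.29.

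Clcn5, the endosomal exchanger whose loss causes Dent disease in humans, had 30.8, 34.5 and 36.4 CPM in the knock-out and 55.9, 57.6 and 62.5 CPM in wild-type (log2 fold change -0.79, SE 0.0829, edgeR adjusted p = 2.53e-12). Clcn4, which forms heteromers with other endosomal family members, had 39.3, 37.4 and 41.8 CPM in the knock-out and 58.1, 55.4 and 54.4 CPM in wild-type (log2 fold change -0.51, SE 0.0794, edgeR adjusted p = 1.49e-07). Both lay below wild-type in every knock-out library. The lysosomal exchanger Clcn7 had 60.8, 61.9 and 58.4 CPM in the knock-out and 79.5, 84.3 and 77.5 CPM in wild-type (log2 fold change -0.41, SE 0.0661, edgeR adjusted p = 2.31e-07; -0.26 with upper-quartile scaling). The late endosomal member Clcn6 averaged 25.9 ± 1.31 CPM in the knock-out and 38.7 ± 0.996 CPM in wild-type (SD, n = 3 each; log2 fold change -0.58, edgeR adjusted p = 3.82e-07).

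The plasma membrane channel gene Clcn2 was the exception, with 14.2, 12.97 and 11.8 CPM in the knock-out and 7.86, 11.5 and 11.5 CPM in wild-type. The groups did not overlap, but it did not pass the test (log2 fold change 0.35, SE 0.165, edgeR adjusted p = 0.0569). It passed as higher under 6 of the 14 alternatives, among them chromosome medians removed (0.39, edgeR adjusted p = 0.0336). Its span overlaps that of Fam131a. The 5 that fell lie on chromosomes 4, 7, 8, 17 and X, whose median log2 fold changes were 0.04, 0.08, -0.35, 0.02 and 0.07. Any part of chromosome position in these falls was not tested. All 5 calls and directions held under each of the 14 alternatives. Clcn6 and Clcn2 are named beyond the 4 that the naming rule gave, after their values were seen.

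The window at 1 of 2 RefSeq starts of Clcn3 on GRCm38.p6, minus strand, chr8:60983262-60983561, is given because this gene had the smallest p of all members.
Clcn3: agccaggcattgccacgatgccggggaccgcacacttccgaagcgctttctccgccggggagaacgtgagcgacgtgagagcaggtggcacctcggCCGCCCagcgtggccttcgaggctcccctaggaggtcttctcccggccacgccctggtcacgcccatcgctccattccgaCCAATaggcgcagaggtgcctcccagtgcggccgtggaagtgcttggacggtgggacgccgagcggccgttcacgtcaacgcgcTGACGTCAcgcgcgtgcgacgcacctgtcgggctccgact
It holds 1 GC box, 1 CCAAT box and 1 CRE in capitals, with 38 CpG dinucleotides.

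**Figure D4:**
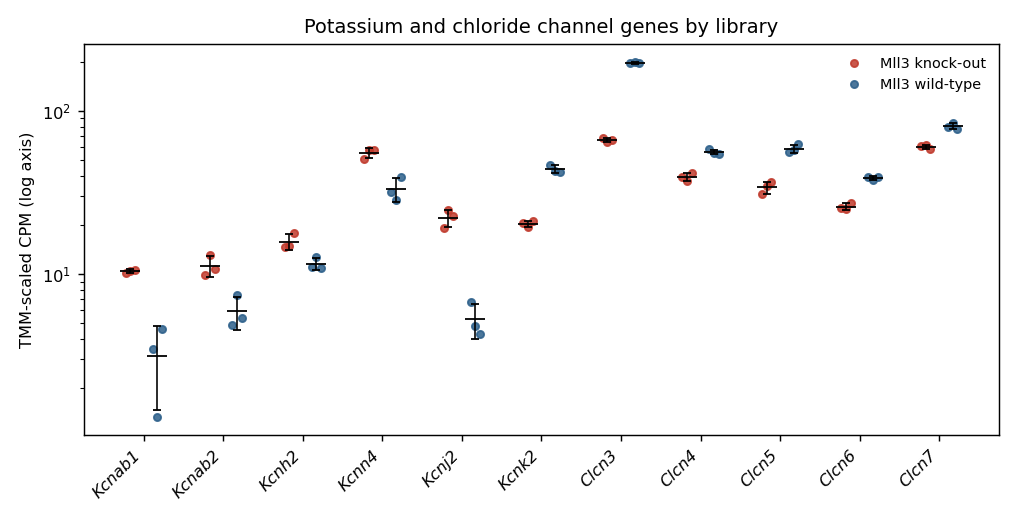
TMM-scaled CPM (log axis) of potassium channel and Clcn genes in each library, knock-out left and wild-type right, with mean ± SD (n = 3). Kcnab1, Kcnab2, Kcnh2, Kcnn4 and Kcnj2 were higher in all knock-out libraries, and Kcnk2 and the 5 Clcn exchangers lower.

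The symbol rule also took in 3 genes that encode no channel. Trpc4ap, a ubiquitin ligase adaptor named for its binding to a TRPC channel, averaged 170 ± 10.2 CPM in the knock-out and 138 ± 4.81 CPM in wild-type (SD, n = 3 each; log2 fold change 0.30, edgeR adjusted p = 4.77e-07), and its span overlaps that of Myh7b. Kcnq1ot1, the imprinted noncoding RNA antisense to Kcnq1, averaged 1.86 ± 0.466 CPM in the knock-out and 4.01 ± 0.327 CPM in wild-type (SD, n = 3 each; log2 fold change -1.10, edgeR adjusted p = 0.00238). Whether reads were counted by strand is not given in the sources used here, so reads of Kcnq1ot1 and Kcnq1 cannot be told apart. Trpc5os, the third, was too low to test. Without these 3 genes 17 members rose and 12 fell, of 47 tested. Across the 49 tested members, 8 have a span that overlaps another protein-coding gene, 6 of them among the 31 calls, and their reads are uncertain for the same reason.

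Removing the median log2 fold change of a chromosome moves every member on it by about that median. This shift does not test an effect of position. With these medians removed, 20 members were higher and 14 lower, against 18 and 13 before. For all genes tested, 4170 were higher and 4261 lower, against 4301 and 4320 before. Of 4 tested members on chromosome 8, Clcn3 and Piezo1 stayed below 0, and Cacna1a, the pore subunit of a neuronal P/Q-type channel, turned from -0.09 (edgeR adjusted p = 0.436) to 0.27 (adjusted p = 0.0131). The other was Kcnu1, described above.

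**Figure D5:**
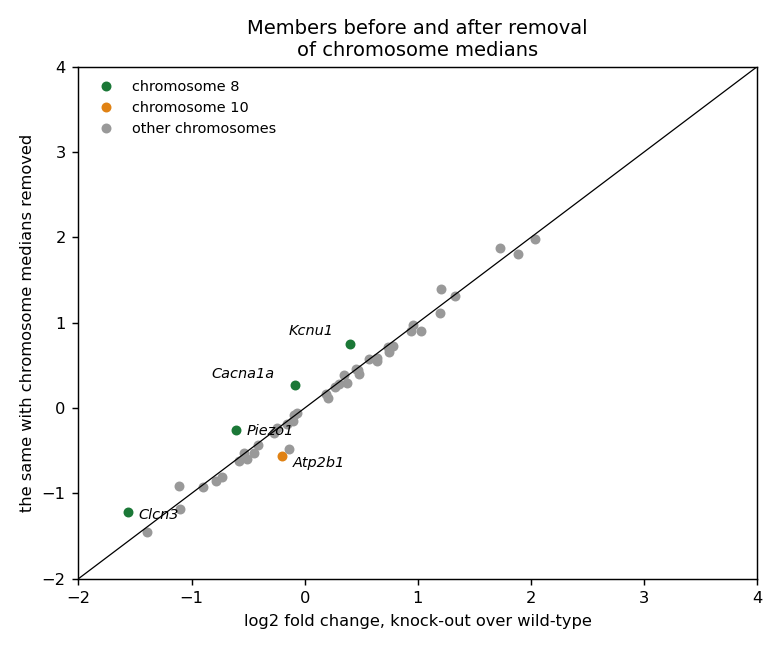
Log2 fold change of each tested member, knock-out over wild-type, before (horizontal) and after (vertical) the median of its chromosome was removed, without Atp2b4 and 1 other member; the line marks equal values. The 4 chromosome 8 genes lie above the line, at -1.21 for Clcn3 and -0.26 for Piezo1 after removal, and Atp2b1 on chromosome 10 lies below it at -0.56.

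Other calcium-handling genes were read from a list of partners, regulators and targets. Of 51 tested, 19 rose, 17 fell and 15 did not pass, with a median log2 fold change of -0.03; with upper-quartile scaling 26 rose and 12 fell, and with library size only 24 rose and 14 fell. Saraf, which switches off store-operated entry, had 54.3, 52.3 and 53.5 CPM in the knock-out and 118, 121 and 117 CPM in wild-type (log2 fold change -1.15, SE 0.0610, edgeR adjusted p = 4.32e-24). It lies on chromosome 8 and was -0.80 with chromosome medians removed. Micu3, a regulator of the mitochondrial calcium uniporter on the same chromosome, had 11.3, 12.5 and 10.47 CPM in the knock-out and 32.6, 39.9 and 38.9 CPM in wild-type (log2 fold change -1.69, SE 0.120, edgeR adjusted p = 1.01e-18; -1.34 with chromosome medians removed). The calcium sensor and effector genes Calm3 and Camk2g rose, with log2 fold changes of 0.66 (SE 0.0448) and 1.36 (SE 0.0840). Camk2g had 62.1, 64.1 and 63.8 CPM in the knock-out and 24.4, 24.2 and 25.4 CPM in wild-type, and it kept 1.02 once the chromosome 14 median was removed.

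Of 42 tested genes of other channel families, 17 rose and 13 fell, with a median of 0.14. The mitochondrial outer membrane channels Vdac3 and Vdac2 moved apart, with log2 fold changes of -0.94 (SE 0.0409) and 0.43 (SE 0.0389). With chromosome medians removed Vdac3 had -0.59, and Vdac2 no longer passed (0.08, edgeR adjusted p = 0.0638). Clic4, a chloride intracellular channel family protein, fell by 0.63 (SE 0.0348), and Tmem63a, an osmosensitive cation channel, by 1.10 (SE 0.117).

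Of 19 tested genes of other ion pumps and exchangers, 8 rose and 6 fell, with a median of 0.05. The cotransporters Slc12a2 and Slc12a4 fell by 0.50 (SE 0.0557) and 1.06 (SE 0.0523). Slc12a2 had 84.7 to 88.0 CPM in the knock-out and 119 to 126 CPM in wild-type, and it kept -0.19 once chromosome medians were removed (edgeR adjusted p = 0.00270). Atp13a3, a P-type ATPase of polyamine transport, fell by 0.86 (SE 0.0457) on the log2 scale. The shares called in these 3 lists were 70.6%, 71.4% and 73.7%, against 66.2% of all genes tested.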

How the data were processed

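The authors deposited whole-number read counts per Ensembl gene in 1 table. Per the submitters' processing notes, fastp, STAR and HTSeq were among the tools and mm10 was the build, with no role or version; strand setting and annotation release: not given in the sources used here. Per the labels' protocols the libraries were strand-specific. Every gene was above 0 in at least 3 libraries. Wild-type columns were matched to samples by group and number, knock-out columns to their group. Symbols were found for 17650 of 17718 identifiers, positions of 12076 tested genes by symbol from RefSeq (GRCm38.p6), and a promoter for 63 of 81 members.

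After filterByExpr, with a minimum count of 10 and total of 15, 13013 genes remained and were scaled by TMM. The test was edgeR's robust quasi-likelihood F test (edgeR 4.0.16, R 4.3.3) with Benjamini-Hochberg adjustment over all genes tested and a threshold of 0.05; SE values come from the F statistic, and the biological coefficient of variation was 5.03%. The pipeline was tested on simulated data. Alternatives were RLE, upper-quartile and library-size scaling, no filter, at least 1 CPM in 3 libraries, DESeq2 1.42.0, limma voom 3.58.1, each library left out and chromosome medians removed. The members, lists and rule for named genes were chosen with earlier results of these data known. The rule names the store, entry and pump genes and Piezo1, the 4 members of each other role and the 4 genes of each partner list with the smallest p, tested members at 0 counts in 1 genotype, and Kmt2c. Medians of the 10 tested genes on either side of a member or partner gene were added after its values were seen. The CUT&Tag and single-cell samples were not analysed here, and values of 2 genes that the naming rule gave are not reported here.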

Additional observations from a re-analysis of the deposited data

How the results depend on the processing

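No paired analysis was possible because no label ties the numbers of the knock-out columns to replicate numbers. The median log2 fold change of all genes tested was 0.02 with TMM, 0.17 with upper-quartile factors and 0.14 with no factors beyond the library total. For the 49 tested members it was 0.26, 0.42 and 0.39, and 0.33 over all 81 without a filter. Of the calls over all genes, 49.9% were higher with TMM, 63.7% with upper-quartile factors and 60.5% with library totals; of the members' calls, 58.1%, 67.6% and 66.7%. Small changes turned sign with these scalings, none of them past the test. With library totals Stim2 had 0.0508, Orai2 0.0283 and Atp2c1 0.0165, and with upper-quartile factors Stim2 had 0.0865, Orai2 0.0640, Atp2c1 0.0524 and Kcnk5 0.0177. Cacna1a also turned positive with both, and Trpm1 turned negative without wild-type replicate 3. With 1 library left out at a time, 16 to 19 members were higher and 13 to 14 lower. Of the 31 calls, 24 kept call and direction under all alternatives that gave a value, 7 (Atp2a1, Atp2b1, Kcnh1, Kcnh2, Orai1, Orai3 and Trpm7) lost the call under at least 1, and 0 reversed. Of 18 members that did not pass, 9 passed under at least 1 alternative. Genes under about 2 CPM, such as Atp2a1, are limited by depth.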
